A study of Homo sapiens with 4 samples.

Results

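The miR-191 and miR-425 cluster is a pair of microRNA (miRNA) genes that lie side by side within the gene DALRD3 on chromosome 3. Its members here were the rows of the deposited miRNA table whose name, without the species prefix and the arm suffix, is miR-191 or miR-425. These were 4 of 1345 rows: miR-191-5p, miR-191-3p, miR-425-5p and miR-425-3p. They were followed in 4 small-RNA libraries of HCT116, an established human colorectal carcinoma line, carrying an shRNA against SAE2 that doxycycline switches on. SAE2 (gene UBA2) is the catalytic subunit of the enzyme that activates SUMO, a small protein that cells attach to other proteins. The minus group held the library labelled sh1-minus (replicate 1) and the library labelled sh2-minus (replicate 2). The plus group held the library labelled sh-plus (replicate 1) and the library labelled sh2-plus (replicate 2). Minus and plus were read as without and with doxycycline, although the labels give the same 3-day treatment text for every library. HCT116 cells, the inducible shRNA cassette and the growth medium were common to both groups, and doxycycline-treated cells without an SAE2 shRNA were not analysed here. Effects of doxycycline itself therefore cannot be told apart from effects of the knockdown. sh1 and sh2 are independent shRNAs in separate cell lines, and each line gave 1 library per condition. The p-values therefore rest on the spread between these libraries only, which the fit described below pools over miRNAs of similar level.

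miRNAs are cut from a folded stretch of a longer transcript, first in the nucleus by Drosha and then in the cytoplasm by Dicer, which leaves a short duplex. One strand of the duplex is kept by an Argonaute protein and guides it to messenger RNAs through its seed, while the partner strand is mostly degraded. miR-191 and miR-425 are made from a shared primary transcript, are found in most human tissues and have been studied in many tumours, colorectal cancer among them. miR-191-5p and miR-425-5p are also among the strands often chosen as references when other miRNAs are quantified.

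RefSeq (GRCh38.p14) places both hairpins on the minus strand, MIR191 at chr3:49020618-49020709 (92 bases) and MIR425 at chr3:49020148-49020234 (87 bases), with 383 bases between them. DALRD3, which encodes a protein with a DALR anticodon-binding domain, spans chr3:49015488-49022293 on the same strand in GENCODE release 29 (GRCh38). Both hairpins lay in intron 1 of 4 of its 15 annotated transcripts, overlapped an exon of none, and lay outside the other 11. MIR191 also lay within the span of NDUFAF3 on the opposite strand, a gene for a factor that helps assemble mitochondrial complex I, and MIR425 did not. The deposited table gives no coordinates and which build it used is not stated beyond the names hg19 and GRCh37 in the submitters' processing notes, so these positions describe the RefSeq and GENCODE entries only.

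**Figure D1:**
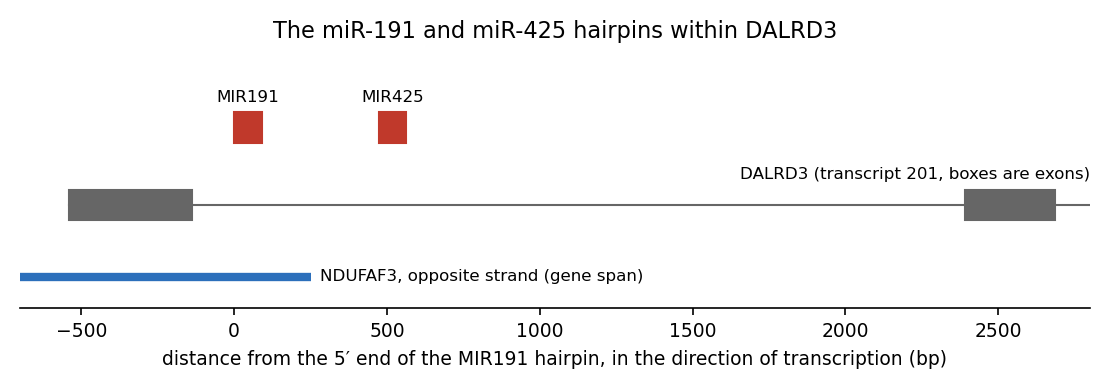
Map of the start of DALRD3 with the hairpins MIR191 and MIR425 (red), the exons of one DALRD3 transcript (grey boxes) and the span of NDUFAF3 on the opposite strand (blue), drawn to scale by distance in base pairs from the 5′ end of MIR191. Both hairpins lie in intron 1, with 383 bases between them.

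The mature strands are shown because each is counted separately in the table and because the seed, bases 2 to 8, sets which messages a strand can pair with. Of the 4 strands, 3 matched a RefSeq mature entry by name, and 1078 of all 1345 table names did. Capitals mark the seed.
miR-191-5p: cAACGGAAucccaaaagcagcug
miR-191-3p: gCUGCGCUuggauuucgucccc
miR-425-3p: aUCGGGAAugucguguccgccc
These 3 seeds differ from each other, and 0 other names among the 1078 matched rows carry any of them. The strand miR-191-5p is 23 bases long with 52.2% G and C, while miR-191-3p and miR-425-3p are 22 bases long with 63.6% each. In the MIR191 hairpin below, capitals mark the 5p strand and then the 3p strand, which face each other across the loop.
MIR191 hairpin: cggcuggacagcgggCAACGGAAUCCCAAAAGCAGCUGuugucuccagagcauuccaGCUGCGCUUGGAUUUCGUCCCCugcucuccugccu

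Values are normalised read counts per mature miRNA, as deposited, and they summed to between 9700472 and 10519207 per library. One read was worth between 0.945 and 1.03 normalised counts, estimated from the low values. Of the epithelial miRNAs taken as markers, all 5 were detected, and their sum was between 458118 and 504916 in every library. Most of this sum was miR-31-5p, at 317555 to 344828, and miR-200c-3p, at 119446 to 135723, while miR-192-5p stood at 2736 to 4942. The blood markers summed to between 957.5 and 1172, the stromal and endothelial ones to between 13450.5 and 16188, the liver marker to between 46.3 and 58.2, the neuron marker to between 13.1 and 31.8, and the muscle markers to between 7.06 and 15.3, with miR-133a at 0 in both minus libraries. By limma at an adjusted p under 0.05, 2 of the 5 epithelial markers rose, miR-192-5p at a log2 change of 0.78 and miR-194-5p at 0.72. Of the 4 stromal and endothelial markers, miR-143-3p rose at 0.29, or 0.026 without plus replicate 2, and miR-145-5p fell at −0.29, or −0.18 without plus replicate 1. These 4 calls ended with no level filter, with no mean-variance trend and without either plus library, and those of miR-143-3p and miR-145-5p also under quantile normalization and without either minus library. That of miR-143-3p also ended with equal totals and at a minimum mean of 100. The part of the markers in the results below was not tested.

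In all 4 libraries the 5p strands were the abundant products of both hairpins. Ranked by the mean over the 4 libraries, miR-425-5p was number 17 and miR-191-5p number 21 of 1345, whereas miR-425-3p was number 172 and miR-191-3p number 335. miR-425-5p made up between 0.995% and 1.13% of each library's total and miR-191-5p between 0.816% and 0.910%. The 4 strands together made up between 1.83% and 1.99%. Mature strands are of nearly equal length, so levels were not divided by length, and differences in adaptor ligation between sequences were not tested.

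None of the 4 strands passed the test between plus and minus libraries. The test was limma on log2(value + 1) over the 709 miRNAs averaging 10 or more, a level that all 4 strands reached, with a threshold of 0.05 on the Benjamini-Hochberg adjusted p. The number of strands past the threshold was 0 of 4, against 28.5% of all tested miRNAs, of which 13.4% were higher and 15.1% lower in the plus libraries. At an unadjusted p under 0.05 the number was 1 of 4, miR-191-3p, against 37.9% of all tested. For 3 of 4 strands the plus values did not overlap the minus values, and the same held for 62.9% of all tested miRNAs, so nothing particular to the cluster is read from it. The median size of the log2 change, sign left aside, was 0.11 over the 4 strands and 0.29 over all tested miRNAs. These medians are not matched for level.

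miR-191-5p, the guide strand of its hairpin, stood at 80375 and 82328 normalised read counts in minus replicates 1 and 2 against 89492 and 86712 in plus replicates 1 and 2. Both plus libraries lay above both minus libraries. The means were 81351 ± 1381 and 88102 ± 1966 (SD, n = 2 each), a ratio of 1.08. The fitted log2 difference was 0.11 ± 0.080 (SE; limma, adjusted p = 0.299), and its 95% interval corresponds to a fold between 0.968 and 1.21. Small differences in either direction lie within this interval. As for the other strands below, the SE rests mostly on the pooled spread of miRNAs at similar level, not on this strand alone.

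miR-425-5p, the guide strand of the neighbouring hairpin, stood at 110695 and 109459 in minus replicates 1 and 2 against 99657 and 104617 in plus replicates 1 and 2. Here both plus libraries lay below both minus libraries. The means were 110077 ± 874 and 102137 ± 3507 (SD, n = 2 each), a ratio of 0.928. The fitted log2 difference was −0.11 ± 0.080 (SE; limma, adjusted p = 0.336), with a 95% interval in fold from 0.829 to 1.04. The sum of both guide strands was 191428 ± 508 in the minus pair against 190239 ± 1541 in the plus pair (SD, n = 2 each), a ratio of 0.994.

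miR-191-3p, the partner strand that is mostly discarded, stood at 173 and 179.6 in minus replicates 1 and 2 against 144 and 125 in plus replicates 1 and 2. Both plus values lay below both minus values. The means were 176 ± 4.41 and 134 ± 13.6 (SD, n = 2 each), a ratio of 0.761. The fitted log2 difference was −0.39 ± 0.18 (SE; limma, adjusted p = 0.0931), which missed the threshold. The estimated reads were 362 in the minus and 262 in the plus pair. After scaling each library by its value of 1 read, the plus to minus ratio was 0.760, with a 95% exact binomial (Clopper-Pearson) interval of 0.646 to 0.894 that covers counting error only and treats reads as independent molecules.

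miR-425-3p, the partner strand of miR-425-5p, stood at 1191 and 1205 in minus replicates 1 and 2 against 1216 and 1106 in plus replicates 1 and 2. The groups overlapped, because plus replicate 1 was the highest of the 4 values and plus replicate 2 the lowest. The means were 1198 ± 9.31 and 1161 ± 77.7 (SD, n = 2 each), and the fitted log2 difference was −0.05 ± 0.11 (SE; limma, adjusted p = 0.796).

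**Figure D2:**
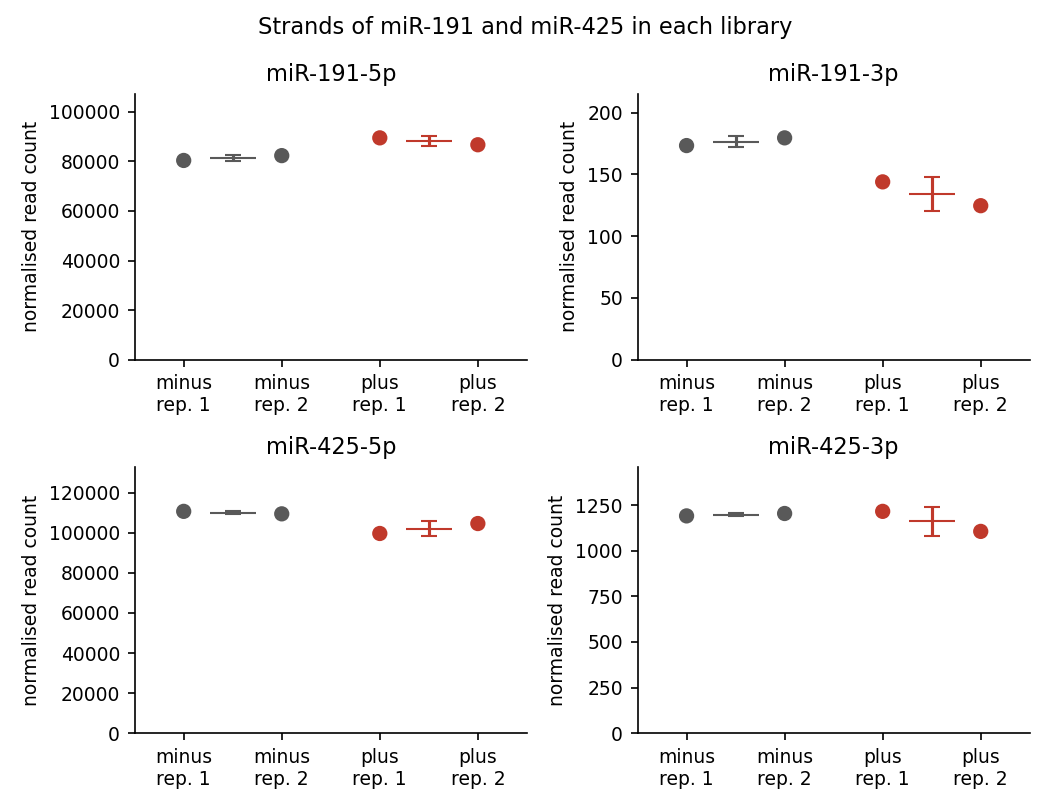
Normalised read count (y axis, from 0, own scale per panel) of each strand in the minus (grey) and plus (red) libraries, with a bar at the mean and whiskers of 1 SD over 2 libraries. The plus libraries lie above the minus libraries for miR-191-5p, below them for miR-425-5p and miR-191-3p, and on both sides of them for miR-425-3p.

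Placed among all tested miRNAs, the guide strands had small differences. The size of the log2 change was smaller than that of miR-191-5p in 19.2% of the 709 tested miRNAs, smaller than that of miR-425-5p in 18.2%, and smaller than that of miR-425-3p in 7.90%. It was smaller than that of miR-191-3p in 62.9%. The 709 miRNAs were not matched for level to the cluster. SEs were larger at low levels, 0.49 for miR-194-3p (group means 8.81 and 12.8) against 0.080 for miR-191-5p. Taken within each shRNA line, where plus replicate 1 was counted to sh1 because no other line was left for it, the log2 change of miR-191-5p was 0.16 in the sh1 and 0.075 in the sh2 line. For miR-425-5p it was −0.15 and −0.065, and for miR-191-3p it was −0.27 and −0.52. With 1 library per line and condition these values carry no test.

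**Figure D3:**
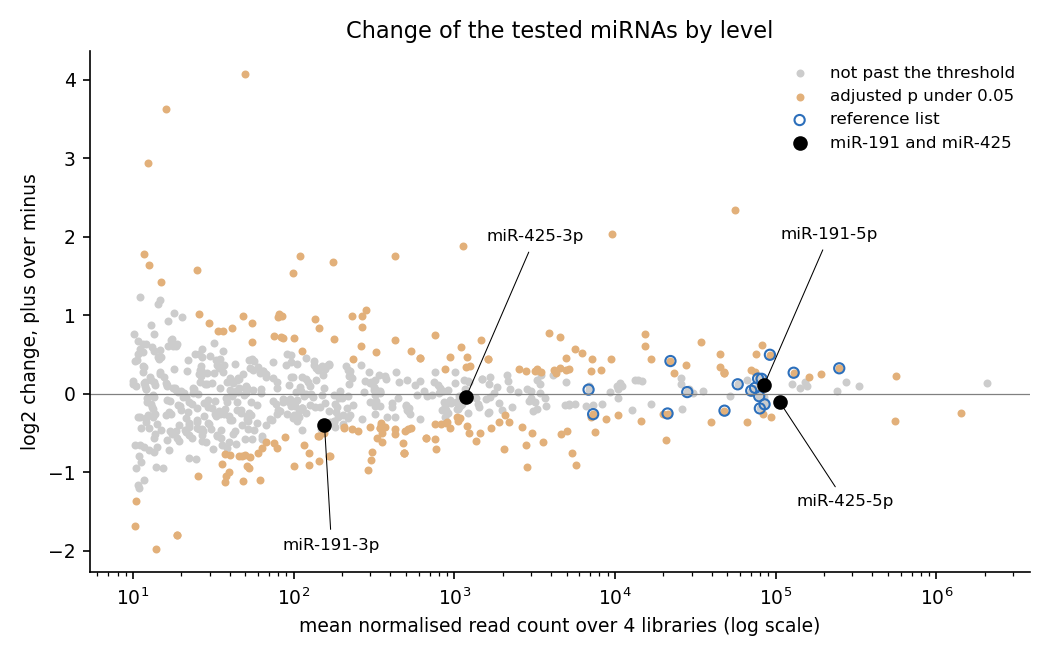
Log2 change from minus to plus libraries (y axis) against the mean normalised read count over 4 libraries (x axis, log scale) for the 709 tested miRNAs, with calls in orange, the reference list in open blue circles and the 4 strands of the cluster in black. The guide strands miR-191-5p and miR-425-5p lie close to 0, at 0.11 and −0.11, and miR-191-3p at −0.39.

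Because both hairpins are cut from a shared transcript, the ratios between strands were taken within each library, where the scaling between libraries has no effect. There were 3 such ratios, each compared between plus and minus by an exact two-sided permutation test, whose smallest possible p with 2 against 2 libraries is 0.33. miR-191-5p stood at 0.726 and 0.752 of miR-425-5p in the minus libraries and at 0.898 and 0.829 in the plus libraries. miR-425-5p was thus the more abundant guide strand in every library, by a smaller margin in both plus libraries. The mean log2 ratio was −0.44 ± 0.036 in the minus pair against −0.21 ± 0.082 in the plus pair (SD, n = 2 each), a difference of 0.22 (exact permutation p = 0.33, adjusted p over the 3 ratios = 0.50). This exact test cannot pass the threshold with 2 against 2 libraries, so no conclusion is drawn from the difference.

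The balance of strands within the MIR191 hairpin was also higher on the 5p side in the plus libraries. miR-191-5p was 464 and 458 times as abundant as miR-191-3p in the minus libraries and 622 and 696 times in the plus libraries. The mean log2 ratio was 8.84 ± 0.011 and 9.35 ± 0.11 (SD, n = 2 each), a difference of 0.51 (exact permutation p = 0.33, adjusted p over the 3 ratios = 0.50). For MIR425 the guide strand was 92.9 and 90.9 times as abundant as its partner in the minus libraries and 81.9 and 94.6 times in the plus libraries. These groups overlapped, with a difference in log2 ratio of −0.062 (exact permutation p = 1, adjusted p = 1).

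**Figure D4:**
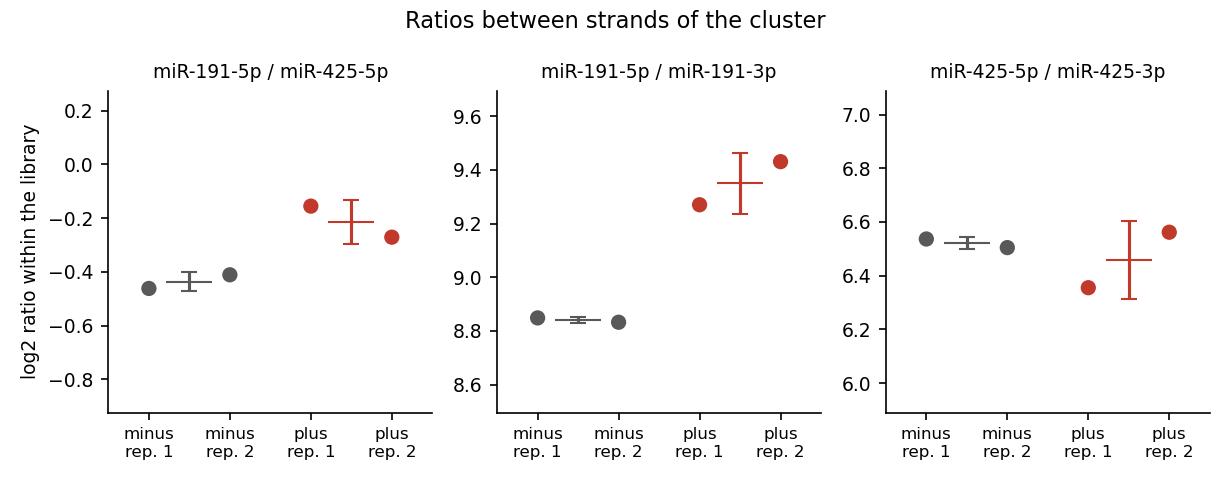
Log2 ratio of strands within each library (y axis, each panel spanning the same number of log2 units) for miR-191-5p to miR-425-5p, miR-191-5p to miR-191-3p and miR-425-5p to miR-425-3p, minus libraries in grey and plus in red, with a bar at the mean and whiskers of 1 SD over 2 libraries. In the first and second panels both plus libraries lie above both minus libraries, by 0.22 and 0.51 on average, and in the last panel the groups overlap.

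Both hairpins are lopsided, miR-191 more than miR-425. Over the libraries the 5p strand made up 99.8% to 99.9% of the reads of MIR191 and 98.79% to 98.95% of those of MIR425. Among 181 hairpin names with both strands in the table and a summed mean of at least 100, the more abundant strand made up 96.2% at the median, miR-191 ranked number 16 and miR-425 number 51 by this share, and 104 of the 181 favoured the 5p strand. The size of the shift in strand ratio between plus and minus was 0.23 at the median of these 181, and by it miR-191 ranked number 43 and miR-425 number 157. Because the filter was on the sum of both strands, the rarer strand could be near 0. miR-449c, with the largest shift, had a 3p mean of 4.7, so these ranks are not matched for level.

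The level of the guide strands varied little over the 4 libraries. The highest value was 1.11 times the lowest for both miR-191-5p and miR-425-5p, and 1.099 times for miR-425-3p. Among the 190 miRNAs averaging 1000 or more over the libraries, these log2 ranges, 0.16, 0.15 and 0.14, were number 25, 23 and 19 from the narrowest, and the median range was 0.33. The places depend on the scaling: miR-191-5p was number 43 under median-ratio scaling and 27 with equal library totals, miR-425-5p number 16 and 34, and miR-425-3p number 11 and 58.

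**Figure D5:**
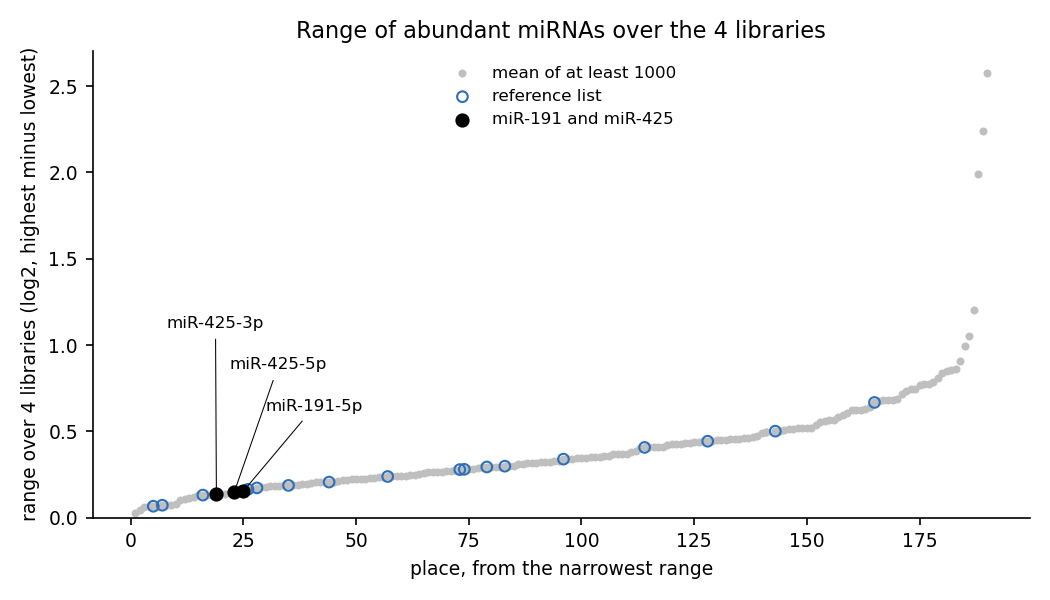
Range over the 4 libraries (y axis, log2, highest minus lowest) of the 190 miRNAs averaging 1000 or more, ordered from the narrowest (x axis, place), with the reference list in open blue circles and strands of the cluster in black. miR-425-3p, miR-425-5p and miR-191-5p sit at places 19, 23 and 25, under the median range of 0.33.

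A list of 17 other strands often used to normalise miRNA measurements was set beside the pair. Of these 17, 4 rose, 3 fell and 10 did not pass, against 13.4% higher and 15.1% lower among all tested miRNAs, and the median log2 change was 0.052 against −0.031 over all tested. The 17 are all abundant, so these shares are not matched for level. At a minimum mean of 100, 141 of 386 tested miRNAs were called, 65 higher and 76 lower. The rises were miR-23a-3p at a log2 change of 0.50, miR-30c-5p at 0.42, miR-26a-5p at 0.32 and miR-24-3p at 0.27 (limma, adjusted p = 1.20e-05, 0.0001, 0.00216 and 0.0195). The falls were miR-484 at −0.26, miR-320a at −0.25 and miR-93-5p at −0.22 (limma, adjusted p = 0.0198, 0.0168 and 0.0384). miR-103a-3p, often paired with miR-191-5p as a reference, was at 0.19 and did not pass (limma, adjusted p = 0.0771, and 0.0401 with the shRNA line as a block). Ordered by range over the 4 libraries together with the 17, miR-425-5p was number 4 and miR-191-5p number 5 of 19, behind miR-25-3p, miR-92a-3p and miR-423-3p, and miR-23a-3p had the widest range at 1.59-fold. miR-191-5p was number 8 and 5 and miR-425-5p number 3 and 7 under median-ratio scaling and equal totals. The calls of the falling strands ended under median-ratio scaling, that of miR-24-3p with equal totals and at a minimum mean of 100, and those of miR-23a-3p and miR-24-3p under quantile normalization. All 7 calls ended with no level filter, with no mean-variance trend, without plus replicate 1 and without plus replicate 2, and only miR-23a-3p and miR-30c-5p of the 7 stayed past the threshold without minus replicate 1 or without minus replicate 2.

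The miRNAs whose pattern over the 4 libraries was most like that of a guide strand were found among the 190 with a mean of at least 1000. The measure was the largest difference, in any library, between log2(value + 1) profiles centred on their own mean. The 5 nearest to miR-191-5p were miR-423-3p, miR-31-5p, let-7e-5p, miR-330-3p and miR-1301, with largest differences from 0.034 to 0.046. The 5 nearest to miR-425-5p were miR-148b-3p, miR-21-3p, miR-196a-5p, miR-941 and miR-126-3p, from 0.031 to 0.039. The guide strands were not among each other's 5 nearest: miR-425-5p was number 74 of 189 from miR-191-5p, and miR-191-5p number 75 of 189 from miR-425-5p. Their largest difference, 0.17, was wider than the log2 range of either strand, 0.16 for miR-191-5p and 0.15 for miR-425-5p. miR-425-3p was number 50 of 189 from its own guide strand, at 0.13. A likeness over 4 libraries is a description.

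Other miRNAs of the chromosome region 3p21, where the cluster lies, were taken from a list of 14 names, of which 9 had rows in the table and 5 were not used here. The 9 names gave 13 strands, and 8 of these reached the level for the test. None rose, 1 fell and 7 did not pass, where 28.5% of all tested miRNAs were called and 15.1% were lower, and the median log2 change was −0.17 against −0.031 over all tested. The medians are not matched for level, and several of the 8 strands were low, such as miR-138-5p at group means of 18.1 and 15.4 (SE 0.41). No regional direction is read from them. The fall was miR-4787-5p, at 11.09 and 20.04 normalised counts in minus replicates 1 and 2 against 5.19 and 5.14 in plus replicates 1 and 2 (log2 difference −1.37 ± 0.52 SE, limma adjusted p = 0.0438), a call lost in 9 of the 12 alternatives in which it was tested (adjusted p from 0.0429 to 0.349). Its partner miR-4787-3p was at 0.28 (limma, adjusted p = 0.165). let-7g-5p, the abundant let-7 strand of this region, was at 135400 and 140664 in minus replicates 1 and 2 against 136679 and 153767 in plus replicates 1 and 2, with a log2 change of 0.071 (limma, adjusted p = 0.543). The hairpins of let-7g and miR-4787 lie 3248 and 1654 kb from MIR191 in RefSeq. miR-135a and miR-138 have a further hairpin on chromosomes 12 and 16, so their mature strands do not report on this region alone.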

How the data were processed

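The deposited table holds a signal per mature miRNA: read counts that the authors scaled between libraries, as read from the values and the word norm in the table's name. Adapters were trimmed with cutadapt per the labels' titles. The submitters' processing notes list the tools TopHat2 2.0.8b and edgeR and the builds hg19 and GRCh37 without saying what each was used for. How reads were counted, and whether the 3 random adaptor bases described in the labels were used to collapse duplicates, is not given in the sources used here. Column names write sh4 where titles write sh2, and columns were matched by library number and index.

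Of the values from 0.5 to 60, 86.6% in minus replicate 2 divided into whole reads to within 0.1. The share was 98.4% to 100% in the other libraries. The deposited values are scaled and are not raw counts, so no count model was run. Estimated depth was 9566036 to 10296796 reads per library. limma 3.58.1 in R 4.3.3 compared log2(value + 1) of 2 plus with 2 minus libraries, two-sided, with a mean-variance trend, over 709 miRNAs with a mean of at least 10. It had 2 residual and 43.0 prior degrees of freedom and was tested on simulated data. The spread behind each of its p-values was therefore mostly pooled over miRNAs. Ratios used exact permutation in scipy 1.17.1. Same-numbered libraries are read as the same shRNA line, plus replicate 1 by elimination; the deviations of replicate 1 from the group means correlated at 0.056 between conditions, over miRNAs. Of the table's rows, 307 equal another row in all libraries, none of them a cluster strand.

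Members, lists and tests were chosen with earlier results of these data known. Named were all 4 strands, members of the reference and 3p21 lists past the threshold, and the 5 strands nearest to each guide strand. Chosen after their values were seen were let-7g-5p, miR-103a-3p, miR-4787-3p, miR-25-3p, miR-92a-3p, miR-133a and the 4 markers past the threshold. The same holds for miR-31-5p and miR-200c-3p as markers, for miR-138-5p and for the hairpin miR-449c. Alternatives were other scalings, pseudocounts, level filters, no trend, a line block and each library left out.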

Additional observations from a re-analysis of the deposited data

Results flagged for a closer look

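The log2 change of miR-425-3p had opposite signs in the cell lines, though it was near 0 in the line read as sh1. Its log2 change from the minus to the plus library was 0.030 in the line read as sh1 and −0.12 in the sh2 line. Estimated reads were 1182 in minus replicate 1 and 1183 in plus replicate 1, and the SE of the fit over all libraries was 0.11. No direction is therefore read for the line taken as sh1. The difference between the lines was not tested, since each line has 1 library per condition. miR-425-5p, from the same hairpin, was lower in the plus library of both lines.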

How the results depend on the processing

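The number of miRNAs past the threshold, 202 of 709, was 103 under quantile normalization, 5 with no level filter, 5 with no mean-variance trend, and between 7 and 115 with 1 library left out (95 and 115 on leaving out minus replicates 1 and 2 in turn, 7 and 8 on leaving out plus replicates 1 and 2). It was 216 with the replicate block. Among those called, 95 were higher and 107 lower as deposited, 109 and 90 under median-ratio scaling, and 68 and 107 with equal totals. No cluster strand passed under any of the 13 alternatives, and the block changed none of their calls. Among the list strands refitted with it, it changed the calls of miR-103a-3p and miR-4787-5p (adjusted p = 0.0527). The log2 change of miR-191-5p ranged from 0.0045 under quantile normalization to 0.16 under median-ratio scaling, that of miR-425-5p from −0.17 to −0.043, and that of miR-191-3p from −0.45 to −0.34 with all libraries (limma adjusted p from 0.0729 to 0.185) and from −0.50 to −0.29 with 1 left out. miR-425-3p ranged from −0.11 to 0.022 with 1 library left out, the sign turning without plus replicate 2. The shift in the ratio of miR-425-5p to miR-425-3p ranged from −0.17 to 0.041, turning without plus replicate 1. The shifts of miR-191-5p to miR-425-5p and to miR-191-3p kept their sign, at 0.17 to 0.28 and 0.43 to 0.59. let-7g-5p turned to −0.10 under quantile normalization, and ranged from −0.014 to 0.16 with 1 library left out, the sign turning without plus replicate 2. The cause of these changes was not tested. Depth limits miR-191-3p, at 122 to 190 estimated reads per library.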

Other observations

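Neighbouring hairpins elsewhere in the genome give a setting for the difference between the guide strands of the cluster. The RefSeq miRNA table used here gave 183 pairs of tested main strands whose hairpins both have an entry and lie on the same strand within 10 kb of each other. It is a partial list, so the places below hold for it alone. In it, the log2 changes of a pair differed by 0.27 at the median. The difference of 0.22 between miR-191-5p and miR-425-5p was number 76 from the smallest. Among the 56 pairs with both means at least 1000, the median difference was 0.22 and the cluster was number 30. Many of the 183 pairs come from the run of hairpins between MIR379 and MIR410, whose strands had low means (133 for miR-379-5p). Strands such as miR-24-3p and let-7a-5p stand for several hairpins, so their changes do not report on any particular pair. Pairs share hairpins and libraries, so these are places in a list and carry no test.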
